A study of Mus musculus with 2 samples.

Results

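Collagens are the main structural proteins of the extracellular matrix, and the 44 genes described here are all those whose symbol has the form Col, a number, a and a number, among 32285 genes in the count tables. Single-cell RNA sequencing gave 2 libraries from tumours grown from MC38, a mouse colon cancer line, in C57BL/6 mice. One library came from tumour of MC38-RSPO3-OE cells, which overexpress RSPO3, a secreted protein that strengthens Wnt signalling. The other came from tumour of MC38-Ctrl cells. The labels call the tumours xenografts, although line and host are of the same species. They give no age, time after implantation, number of animals or number of clones. RSPO3-OE and Ctrl were 1 library each, so no difference between them has a replicate check, no p-value is given, and every interval covers counting error only, on UMIs that share cells and one library.

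Each collagen molecule is a triple helix of 3 chains, encoded by 1 to 3 genes according to type. Fibril-forming collagens (types I, II, III, V, XI, XXIV and XXVII) build the load-bearing fibres, type IV builds the sheet of basement membranes, type VI builds beaded filaments around cells, and smaller types decorate fibrils or link layers. In most tissues fibroblasts are the main source of fibrillar collagen, and in carcinomas the amount and crosslinking of collagen are among the best known features of the stroma.

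The 2 libraries held 7314 and 7301 barcodes, of which 6991 RSPO3-OE and 6896 Ctrl cells were kept, with medians of 18911 and 16627 UMIs (unique molecular identifiers, which count captured RNA molecules). The libraries shared 7 barcodes. Tumour cells were taken as cells with no UMI of the leukocyte gene Ptprc and at least 1 of Hmga2, a chromatin protein of MC38 cells, and macrophages as cells with at least 20 UMIs of the complement genes C1qa, C1qb and C1qc together. There were 4226 RSPO3-OE and 4327 Ctrl tumour cells, and 1213 and 1175 macrophages, and 25 and 8 cells met both rules. Levels are UMIs of a gene scaled to 1000000 UMIs of the class (CPM). They count 3′ tags, so they do not grow with gene length, but how well each gene's 3′ end is captured enters any comparison between genes and was not tested. Rspo3 stood at 106.5 CPM in RSPO3-OE tumour cells and had 0 UMIs in Ctrl tumour cells, which allows up to 0.0282 CPM.

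Tumour cells of MC38 carried part of a fibroblast marker list, and the classes were checked against defining markers before their collagens were read. The fibroblast marker list summed to 2175 CPM in tumour cells of RSPO3-OE and to 1783 CPM in those of Ctrl, of which decorin (Dcn) made up 2096 and 1686 CPM. Of the 8 genes of that list, Pdgfrb stood at 41.4 and 46.6 CPM in tumour cells, Pdgfra at 17.7 and 28.7, Lum at 14.8 and 15.6 and Pi16 at 3.82 and 5.26, while Dpt, Fap and Thy1 were at or below 0.267 CPM in both libraries. In host stromal cells, described last, Pdgfrb stood at 48.1 and 48.9 CPM and Dpt at 619.0 and 466.7 CPM. Of the epithelial keratins, Krt8 stood at 537.9 CPM in RSPO3-OE against 87.4 CPM in Ctrl tumour cells, and Krt18 at or below 0.448 CPM. A UMI of the Y-linked genes was seen in 914 RSPO3-OE and 788 Ctrl macrophages but in 35 and 22 tumour cells, so these genes were used as a sign of host cells. Endothelial markers summed to 16.2 CPM in RSPO3-OE against 2.501 CPM in Ctrl, and pericyte and smooth muscle markers to 43.0 against 8.07 CPM, most of it Cspg4 (34.2 and 6.06). The part of either list in the collagen differences was not tested. Macrophage markers summed to 89.3 and 86.2 CPM in tumour cells, against 32935 and 39924 CPM in macrophages.

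Of the 44 genes, 35 had an entry among the promoters of RefSeq (GRCm38.p6), and 4 windows are printed because, among members with at least 100 UMIs in tumour cells, Col28a1, Col18a1 and Col3a1 had the largest log2 ratios between the libraries, up or down. Each is the 250 bases before the annotated start, read 5′ to 3′ on the gene's strand. Capitals mark 4 short motifs on either strand. They are the TATA box, searched as TATAAA, the box spelled CCAAT, the GC box, searched as GGGCGG, and the AP-1 site, searched as TGANTCA. None of the 4 spellings contains another. Col18a1 has 2 annotated starts, and 3′ counts cannot tell which of them was used.

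Col3a1 (chr1:45311288-45311537, plus strand): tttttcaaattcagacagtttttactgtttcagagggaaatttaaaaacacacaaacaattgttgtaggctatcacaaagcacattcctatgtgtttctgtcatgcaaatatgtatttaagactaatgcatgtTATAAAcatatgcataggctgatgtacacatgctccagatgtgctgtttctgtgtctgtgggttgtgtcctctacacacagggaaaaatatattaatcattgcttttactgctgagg

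Col18a1, outer start (chr10:77166531-77166780, minus strand): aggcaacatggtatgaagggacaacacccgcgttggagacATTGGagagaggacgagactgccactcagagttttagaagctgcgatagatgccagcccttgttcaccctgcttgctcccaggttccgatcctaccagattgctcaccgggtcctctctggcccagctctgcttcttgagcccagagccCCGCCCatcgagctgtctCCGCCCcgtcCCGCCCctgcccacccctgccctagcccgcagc

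Col18a1, inner start (chr10:77113706-77113955, minus strand): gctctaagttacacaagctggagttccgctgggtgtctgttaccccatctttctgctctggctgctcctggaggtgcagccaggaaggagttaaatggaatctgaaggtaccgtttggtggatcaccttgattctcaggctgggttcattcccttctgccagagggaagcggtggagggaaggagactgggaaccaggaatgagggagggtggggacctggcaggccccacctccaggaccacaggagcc

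Col28a1 (chr6:8192618-8192867, minus strand): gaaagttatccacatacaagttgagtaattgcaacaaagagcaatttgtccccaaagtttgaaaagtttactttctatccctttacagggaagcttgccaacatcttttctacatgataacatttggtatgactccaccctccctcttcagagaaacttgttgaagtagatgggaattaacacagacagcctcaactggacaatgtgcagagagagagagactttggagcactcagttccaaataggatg

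The Col3a1 window held a TATA box once, from 117 to 112 bases before the start. The outer Col18a1 window held 1 CCAAT box and 3 GC boxes, the latter all within 61 bases of the start, and the inner window, which lies inside the gene, held none of the 4 motifs. The Col28a1 window held none either. Among all 32851 windows of this length, 12.4% held a TATA box, 33.9% a CCAAT box, 32.7% a GC box and 6.75% an AP-1 site. Among the 38 collagen windows, 5 held a TATA box, 13 a CCAAT box, 22 a GC box and 1 an AP-1 site. Searched on both strands, a match describes letters only.

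Type IV collagen shows an arrangement that its levels can be read against. Col4a1 (chr8:11198423-11312826, minus strand) and Col4a2 (chr8:11312805-11449287, plus strand) run away from each other, and in the GENCODE vM21 annotation the ends of the 2 genes overlap by 22 bases.

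Shared first bases of Col4a1 and Col4a2 (chr8:11312805-11312826, plus strand): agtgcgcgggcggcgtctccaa

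In tumour cells collagens were abundant in both libraries and the total was higher in the RSPO3-OE library. All collagen UMIs together reached 3470 CPM in RSPO3-OE against 2406 CPM in Ctrl, a log2 ratio of 0.53 (0.52 to 0.54) or 1.44-fold. Of the 44 genes, 28 had at least 10 UMIs in both libraries together, 7 had 1 to 9 and 9 had none. A gene was counted as higher or lower when the libraries differed at least 1.5-fold. By that rule 7 of the 28 genes were higher in RSPO3-OE (25%, against 13.5% of 15217 genes tested) and 5 were lower (17.9%, against 16.8%). The median log2 ratio of the 28 genes was 0.10, beside -0.09 for all genes tested. The difference in the total lay mostly in 1 gene: Col3a1 made up 805.4 of the 1064 CPM by which RSPO3-OE exceeded Ctrl, or 75.7%.

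**Figure D1:**
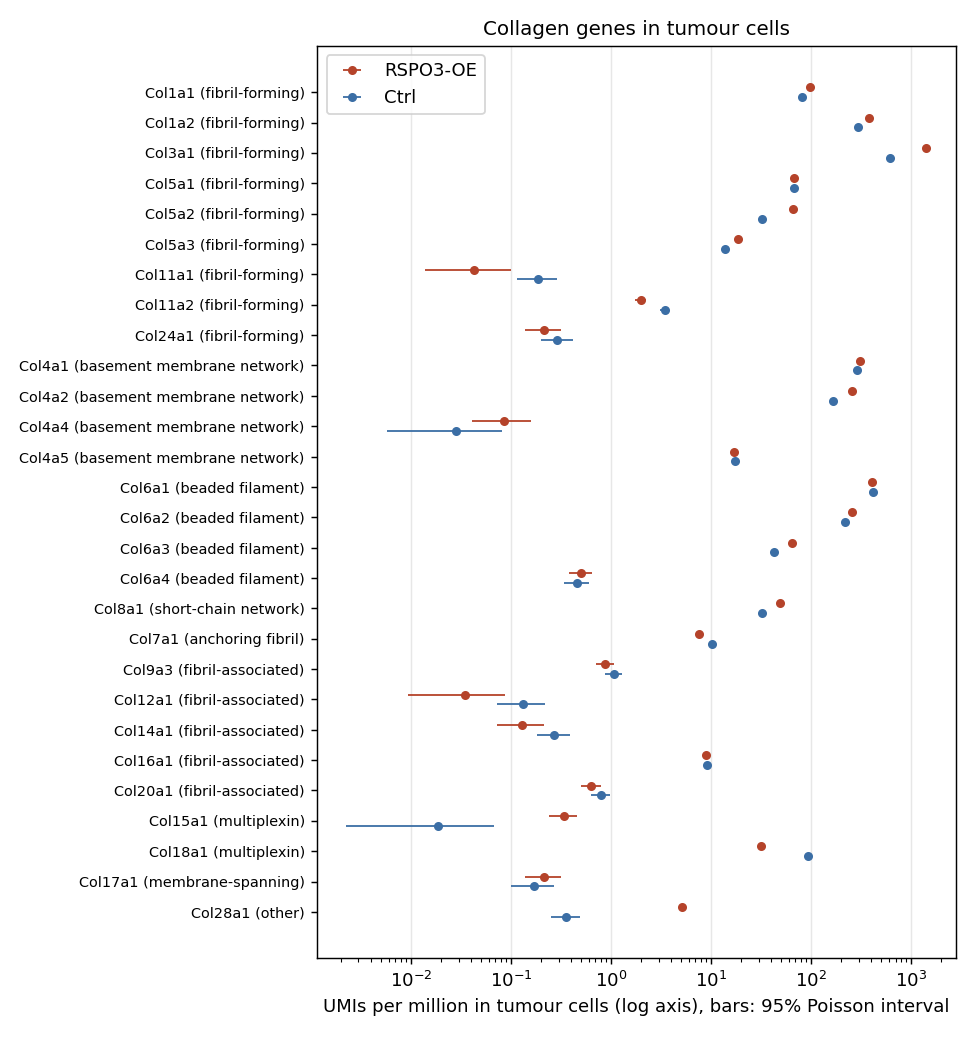
Level of the 28 collagen genes with at least 10 UMIs in tumour cells, in CPM on a log axis, for RSPO3-OE (red) and Ctrl (blue), with bars for the exact 95% Poisson interval of counting error. Col3a1 is the highest gene in both libraries at 1420 and 614.7 CPM, and Col18a1 and Col28a1 are the points farthest apart among genes above 1 CPM in either library, in opposite directions.

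The fibril-forming genes were the largest group and the one with the largest difference among the abundant types. Together they reached 2056 CPM in RSPO3-OE against 1109 CPM in Ctrl, which was 59.3% and 46.1% of all collagen UMIs of the class. Col3a1, whose chains form type III fibrils of distensible tissue, was at 1420 CPM in RSPO3-OE (1413 to 1427) against 614.7 CPM in Ctrl (610.0 to 619.5), a log2 ratio of 1.21 (1.19 to 1.22). It was seen in 96.9% of RSPO3-OE and 92.7% of Ctrl tumour cells, and in 67.7% and 52.4% after every cell was thinned to 2000 UMIs. Col5a2, a chain of the type V collagen that seeds type I fibrils, stood at 66.3 against 32.1 CPM, a log2 ratio of 1.05 (0.99 to 1.11), and was seen in 52.9% of RSPO3-OE and 33.1% of Ctrl tumour cells.

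The partner chains of these genes were closer to equal. Col5a1, the other main type V chain, stood at 68.2 and 67.1 CPM, a log2 ratio of 0.02 (-0.02 to 0.07), so the ratio of Col5a1 to Col5a2 UMIs was 1.03 in RSPO3-OE and 2.09 in Ctrl. Col5a3, a type V chain of fewer tissues, stood at 18.7 and 13.8 CPM, with a log2 ratio of 0.44. The type I chains, which form the most abundant collagen of skin and bone, also stayed under 1.5-fold. Col1a2 stood at 384.0 and 295.9 CPM (log2 ratio 0.38) and Col1a1 at 97.0 and 81.5 CPM (0.25).

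Type I collagen is built from 2 chains of Col1a1 for each chain of Col1a2, yet the tumour cells had fewer Col1a1 than Col1a2 UMIs. The ratio of Col1a1 to Col1a2 was 0.253 (0.247 to 0.258) for the RSPO3-OE library and 0.276 (0.269 to 0.282) for Ctrl. In the few host stromal cells described below it was 0.754 (0.714 to 0.797) and 0.798 (0.742 to 0.859). Capture of the 3′ ends was not tested in either class. Col1a2 was seen in 97.1% of RSPO3-OE and 94.3% of Ctrl tumour cells, and Col1a1 in 41.0% and 41.8%.

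The cartilage-type fibrillar genes were scarce. Col11a2, a chain of type XI collagen, was at 1.99 CPM in RSPO3-OE against 3.47 CPM in Ctrl, a log2 ratio of -0.80 (-1.04 to -0.56), and Col11a1 had 5 and 20 UMIs. Col24a1 had 25 and 31 UMIs, Col2a1 had 2 and 0, and Col27a1 had 0 in both libraries.

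The type IV chains, which line basement membranes, also differed from each other. Col4a2 was at 258.8 CPM in RSPO3-OE against 165.9 CPM in Ctrl, a log2 ratio of 0.64 (0.61 to 0.67). Col4a1, which shares its start region with Col4a2 and whose product forms one helix with it in a ratio of 2 to 1, stood at 306.5 and 290.4 CPM, a log2 ratio of 0.08 (0.06 to 0.10). The Col4a1 to Col4a2 ratio was thus 1.18 (1.17 to 1.20) for the RSPO3-OE library and 1.75 (1.72 to 1.78) for Ctrl. In host stromal cells it was 1.38 and 1.43, with intervals that overlap. Col4a5, an X-linked chain of specialised basement membranes, stood at 16.9 and 17.5 CPM, and its near-zero ratio of -0.05 changed sign under another scaling. Col4a4 had 10 and 3 UMIs, so its call as higher rests on 13 molecules and its interval spans 0. Col4a3 and Col4a6 had none.

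The beaded-filament genes of type VI collagen made up 21.0% of collagen UMIs in RSPO3-OE tumour cells and stood at 727.2 against 675.0 CPM. Col6a1 stood at 403.5 and 414.5 CPM, a log2 ratio of -0.04 whose sign also depends on the scaling, and Col6a2 at 259.1 and 217.2 CPM (0.25). Col6a3, the large chain that joins them, stood at 64.0 and 42.7 CPM, a log2 ratio of 0.58 (0.53 to 0.64), which is 1.499-fold, just under the threshold, and ranged from 0.41 to 0.78 over the alternatives. Just above the threshold was Col8a1, a short-chain collagen of vessel walls and cornea, at 49.1 and 32.2 CPM, a log2 ratio of 0.61 (0.55 to 0.67), or 1.53-fold, with a range of 0.51 to 0.70. Of the minor type VI chains, Col6a4 had 58 and 49 UMIs, Col6a5 had 0 and 9, and Col6a6 had 4 and 0.

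Col18a1 went the other way from the fibrillar genes. Its product, type XVIII collagen, is a heparan sulfate proteoglycan of basement membranes that releases the fragment endostatin. It was at 31.3 CPM in RSPO3-OE (30.3 to 32.4) against 93.6 CPM in Ctrl (91.8 to 95.5), a log2 ratio of -1.58 (-1.64 to -1.53), or 2.99-fold higher in Ctrl. It was seen in 43.6% of RSPO3-OE and 69.5% of Ctrl tumour cells, and in 5.52% and 15.98% of thinned cells. The 3′ end of Col18a1 overlaps Slc19a1, a folate carrier on the opposite strand, in the annotation, and Slc19a1 itself stood at 19.03 and 16.2 CPM, a log2 ratio of 0.24. Whether the counting used strand is not stated in the labels.

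Col28a1, which encodes a collagen with von Willebrand factor domains, had the largest relative difference of the better counted genes. It had 598 UMIs in RSPO3-OE and 38 in Ctrl tumour cells, or 5.16 (4.75 to 5.59) and 0.357 (0.253 to 0.490) CPM, a log2 ratio of 3.85 (3.38 to 4.37). It was seen in 11.1% of RSPO3-OE tumour cells, and 596 of its 598 UMIs were in cells with no Y-linked UMI. Col15a1, the other multiplexin, showed a log2 ratio of 4.16 from 39 and 2 UMIs, but only 1 of those 39 UMIs was in cells with no Y-linked UMI.

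Among the genes that decorate or anchor fibrils, Col7a1, the anchoring fibril below epithelia, stood at 7.62 and 10.3 CPM (log2 ratio -0.43). Col16a1 stood at 9.004 and 9.18 CPM. Col9a3 and Col20a1 had 74 to 113 UMIs a library with intervals spanning 0. Col12a1 had 4 and 14 UMIs and Col14a1 15 and 29, both counted as lower, and both are at levels near 0 beside their levels in host stromal cells. The membrane-spanning genes were near the limit of detection, with 25 and 18 UMIs of Col17a1, 1 and 0 of Col13a1, and none of Col23a1 or Col25a1. Col10a1 had 1 and 5 UMIs, Col9a1 1 and 0, Col22a1 5 and 0, and Col8a2, Col9a2, Col19a1 and Col26a1 had none.

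**Figure D2:**
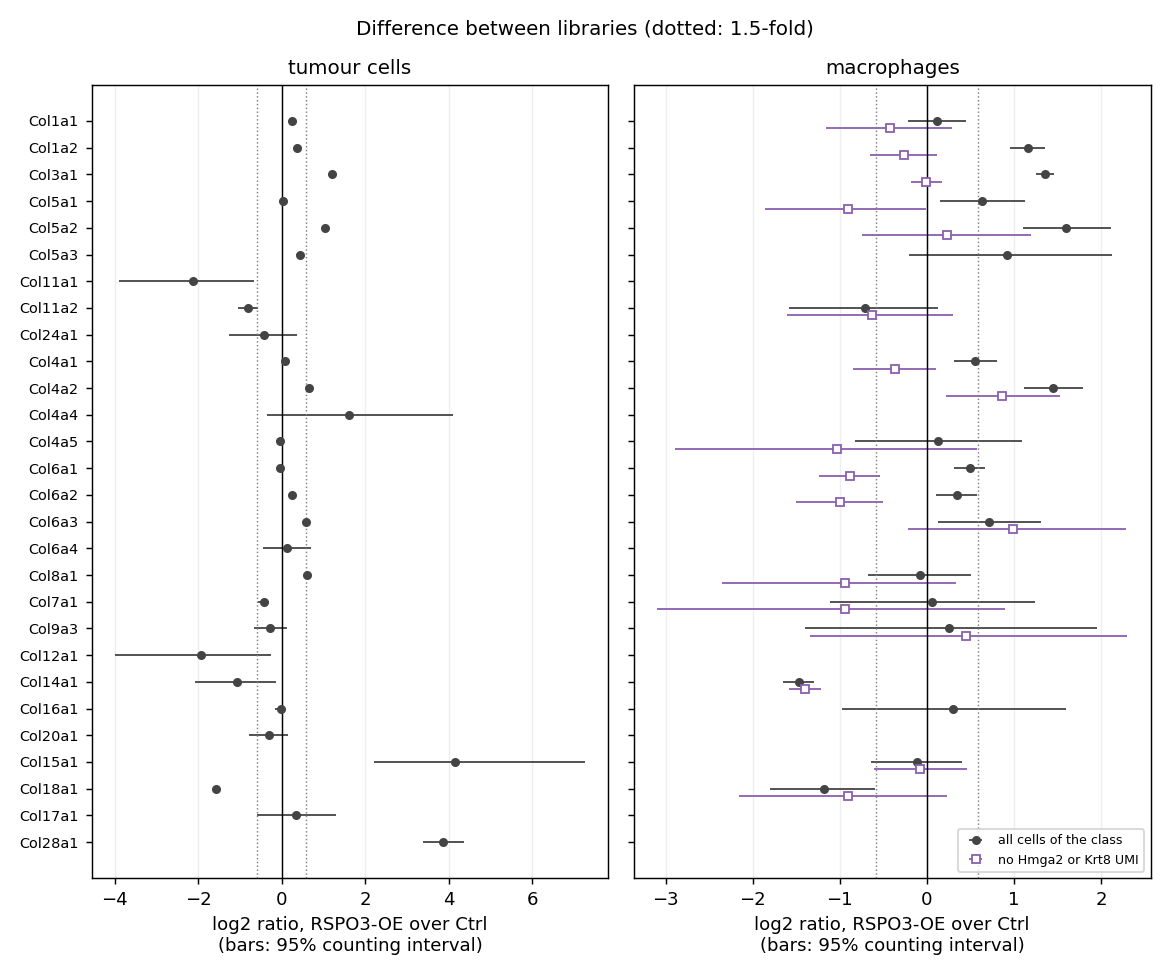
Log2 ratio of RSPO3-OE over Ctrl for each collagen gene with at least 10 UMIs in both libraries together, in tumour cells (left) and macrophages (right), with bars for the 95% counting interval and dotted lines at 1.5-fold. Open squares are macrophages with no UMI of Hmga2 or Krt8, in which Col1a2, Col5a1, Col6a1 and Col6a2 lie to the left of 0 while Col14a1 stays near its value in all macrophages.

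The tumour cells were uneven in their fibrillar collagen. With every cell thinned to 10000 UMIs (4159 RSPO3-OE and 3812 Ctrl cells deep enough), the top 10% of cells held 70.2% of Col1a1 UMIs in RSPO3-OE and 70.3% in Ctrl, and 48.2% and 52.4% of Col3a1 UMIs. For the cytoskeletal gene Actb the share was 20.3% and 20.7%. Col4a1 was more even than Col1a1 and Col3a1, with 30.8% and 31.2% in the top 10% of cells. The fibrillar gene Col1a2 was near it, at 35.4% in RSPO3-OE and 32.1% in Ctrl, and Col4a2 stood at 30.0% and 37.8%. The median thinned tumour cell had 7 Col3a1 UMIs in RSPO3-OE and 3 in Ctrl, and the highest had 227 and 164.

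Collagen was higher in tumour cells with mesenchymal markers and lower in dividing cells, in both libraries. Cells with at least 3 UMIs of the proteoglycan gene Lum, 4.47% of RSPO3-OE and 3.81% of Ctrl tumour cells, held 9653 and 6346 CPM of collagen, against 3235 and 2272 CPM in the rest. Cells with at least 3 UMIs of the proliferation genes Mki67 and Top2a held 2163 and 1753 CPM, against 5962 and 3810 CPM in the rest. The dividing cells were the deeper ones, with medians of 32491 and 28944 UMIs. Along this split Col3a1 differed by a log2 ratio of -2.14 in RSPO3-OE and -1.81 in Ctrl, Col5a2 by -2.35 and -1.49, and Col4a5 in Ctrl by -1.71. Col8a1 and Col18a1 varied little, at -0.36 and -0.01 for Col8a1 and -0.32 and -0.09 for Col18a1.

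Cells with at least 10 UMIs of the keratin gene Krt8 were 33.3% of RSPO3-OE and 4.69% of Ctrl tumour cells and had less collagen, at log2 ratios of -1.12 and -0.41 against the rest. Cells with at least 3 UMIs of Mgp, a matrix calcification inhibitor, made up 30.6% and 7.93% and had more, at 1.34 and 1.24. In RSPO3-OE, the 22.1% of tumour cells with an Rspo3 UMI held 2549 CPM of collagen and those without held 3775 CPM, a log2 ratio of -0.57. Depth differed along these splits. Median UMIs with and without the marker in RSPO3-OE were 30972 and 22342.5 for Krt8, 21106 and 27543 for Mgp, and 28331 and 24465 for Rspo3. In Ctrl they were 30938 and 20948.5 for Krt8 and 16708 and 21961 for Mgp. The part of depth in the collagen differences was not tested.

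**Figure D3:**
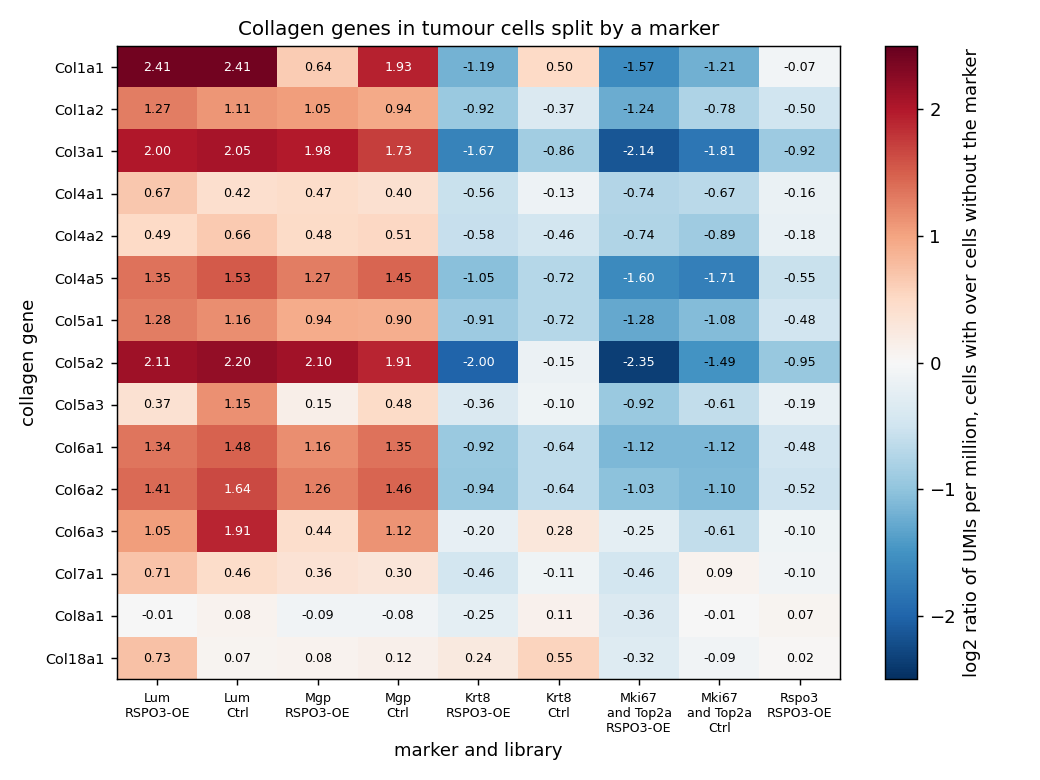
Log2 ratio of CPM in tumour cells with a marker over those without, for the 15 collagen genes at 10 CPM or more in either library (rows) and each marker and library (columns). Red is higher and blue lower in cells with the marker: Col1a1, Col3a1 and Col5a2 range from above 2 with Lum to below -1 with Mki67 and Top2a, while Col8a1 stays between -0.36 and 0.11.

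The difference between libraries was therefore read within each side of these splits. Col18a1 was lower in RSPO3-OE on all 8 sides of the Lum, Mgp, Krt8 and dividing-cell splits, at log2 ratios from -1.95 to -0.95. Col3a1 was higher on all 8, from 0.59 in cells with few Mgp UMIs to 1.63 in cells with few Krt8 UMIs. Col4a2 was higher on all 8, from 0.48 to 0.82. Col5a2 ranged from -0.29 (-0.51 to -0.07) in cells with Krt8 to 1.56 in cells without. Col1a1 turned in the same way, at -1.03 in cells with Krt8 and 0.66 in cells without, and at -0.999 in cells with Mgp and 0.29 in cells without. In cells with and without Mgp, Col3a1 stood at 0.84 and 0.59, against 1.21 over all tumour cells. Col5a2 stood at 0.58 and 0.39 there, against 1.05. For Col3a1 the Krt8 sides stood at 0.82 and 1.63. Cell makeup along these markers and a shift within cells cannot be told apart, whether or not the sides agree in direction.

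Across thinned tumour cells the fibrillar and type VI genes went together, given as a description of cells that share a library and are not replicates. The Spearman correlation of Col3a1 with Col6a1 was 0.71 in RSPO3-OE and 0.64 in Ctrl, that of Col6a1 with Col6a2 was 0.65 and 0.67, and that of Col4a1 with Col4a2 was 0.43 and 0.40. Over the 105 pairs of the 15 genes the median was 0.12 in each library, and 21 and 18 pairs were above 0.3. The level of other genes was compared with the summed fibril-forming collagens among 7082 genes seen in at least 10% of thinned cells, with collagen genes left out of the ranking. The 10 non-collagen genes that followed the sum most closely, by the mean of both libraries, were Dcn (0.70 and 0.48), Fn1 (0.63 and 0.48), Bgn (0.62 and 0.49), Aspn, Apod, Lsp1, Spry1, Cst3, Islr and Mxra8. Dcn, Bgn and Aspn are small leucine-rich proteoglycans and Fn1 is fibronectin.

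The genes that make, trim, link and bind collagen differed in both directions, and the counts of each list stand beside the 13.5% of all genes tested that were higher, the 16.8% that were lower and the all-gene median of -0.09. None of the 20 counted genes of folding and hydroxylation in the endoplasmic reticulum was 1.5-fold higher or lower in tumour cells, with a median log2 ratio of -0.10. Lysyl hydroxylases Plod1 and Plod2 stood at 0.41 and 0.26, Plod3 at -0.54, the prolyl hydroxylase chains P4ha3 at 0.29 and P4ha2 at -0.57, and the isomerase Fkbp14 at -0.54. Of 4 counted propeptide-cleaving genes, 1 was higher and 1 lower (median -0.31): Adamts14, a procollagen amino-propeptidase, was lower at -0.87 (-1.03 to -0.71). The enhancer Pcolce stood at -0.55 and the carboxy-propeptidase Bmp1 at -0.07.

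Of 6 crosslinking genes 2 were higher and 1 lower, with a median of 0.44. Loxl2 was higher at 0.66 and Loxl4 lower at -1.15, both lysyl oxidases, and Loxl3, Loxl1 and the transglutaminase Tgm2 stood at 0.45, 0.43 and 0.23. Among 18 counted partners of fibrils and basement membranes, 6 were higher and 2 lower (median 0.29). Lama4, a laminin chain of vessels, was at 21.0 CPM in RSPO3-OE against 0.461 CPM in Ctrl, a log2 ratio of 5.51 (5.10 to 5.95). Thbs2, which regulates fibril assembly, stood at 20.9 and 2.02 CPM (3.37), and Fbln1 at 2.85 and 1.16 CPM (1.30). The basement membrane linker Nid2 was lower at -2.35, thrombospondin Thbs1 was lower at -0.92 and perlecan, Hspg2, stood at -0.25.

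Of 10 counted collagen receptors 4 were higher and 2 lower, with a median of -0.01. The inhibitory receptor Lair1 was at 1.30, the integrin chain Itga2 at 0.90, Adgrg1 at 0.87, Itga10 at -1.08, Itga1 at -0.84 and the uptake receptor Mrc2 at -0.50. Lair1 is a leukocyte gene and stood at 1.78 CPM in these RSPO3-OE tumour cells, against 282.1 CPM in macrophages. Of 16 genes of collagen breakdown 6 were higher and 1 lower (median 0.32). The gelatinase Mmp2 stood at 124.6 and 30.5 CPM (2.03), the inhibitors Timp3 and Timp2 at 1.76 and 0.85, the gelatinase Mmp9 at -0.68, the membrane protease Mmp14 at -0.33 and the lysosomal protease Ctsb at 0.03.

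Macrophages are not a classical source of fibrillar collagen, and most of the collagen UMIs read in them were of the genes abundant in tumour cells. All collagen UMIs reached 393.8 CPM in RSPO3-OE macrophages against 260.8 CPM in Ctrl macrophages. Of the 44 genes, 20 had at least 10 UMIs, 9 had 1 to 9 and 15 had none. Of the 20, 7 were higher in RSPO3-OE (35%, against 13.1% of 12842 genes tested) and 3 lower (15%, against 7.76%), with a median log2 ratio of 0.32 beside 0.05 for all genes. The higher genes were Col1a2, Col3a1, Col4a2, Col5a1, Col5a2, Col5a3 and Col6a3. Col3a1 stood at 180.1 and 70.3 CPM, Col1a2 at 42.8 and 19.2, Col6a1 at 40.5 and 28.8, Col4a1 at 21.8 and 14.8, Col6a2 at 21.7 and 17.1, Col4a2 at 17.3 and 6.32 and Col1a1 at 10.4 and 9.63.

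These counts turned when macrophages with tumour cell transcripts were left out. Macrophages with a UMI of Hmga2 or Krt8 were 174 of 1213 (14.3%) in RSPO3-OE and 73 of 1175 (6.21%) in Ctrl, and they held 77.3% and 41.5% of all macrophage collagen UMIs. Their collagen level was 1694.5 and 1374 CPM, against 109.0 and 165.6 CPM in the other 1039 and 1102 macrophages. Among those others the summed collagen log2 ratio was -0.60, the median gene stood at -0.53, and of 18 genes counted 2 were higher and 9 lower, beside 10.5% higher and 8.91% lower of 12426 genes tested under the same rule. Since tumour cells of the libraries held Krt8 at such unequal levels (537.9 and 87.4 CPM), this rule does not remove like cells from both. Tumour cells held Hmga2 at 350.6 and 269.9 CPM, and a rule on Hmga2 alone, chosen after seeing the data, left 1124 and 1129 macrophages with a summed ratio of -0.34, 1 gene higher and 10 lower of 20, beside 11% and 8.85% of 12525 genes, and Col3a1 at a log2 ratio of 0.47. With neither Hmga2 nor Krt8, Col3a1 stood at 38.7 (35.4 to 42.3) and 38.8 (35.7 to 42.2) CPM, and Col6a1 at 7.96 and 14.7 CPM. Requiring a Ptprc UMI gave a summed ratio of -0.45, and requiring 50 C1q UMIs gave -0.57.

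As a share of the tumour cell level of the same library, the collagens at 10 CPM or more in tumour cells stood at a median of 8.24% (6.38 to 13.2, 14 genes) in RSPO3-OE and 6.96% (3.81 to 11.8, 15 genes) in Ctrl macrophages. In macrophages with no Hmga2 or Krt8 UMI the median was 2.02% and 3.54%, and in T cells 2.43% and 3.26%. These macrophages were at or below the T cell share for 10 of 14 genes in RSPO3-OE and 6 of 15 in Ctrl, and above it for the others. Many T cell shares rest on few UMIs, so this tally is not resolved gene by gene. For Col6a3 in Ctrl T cells the share was 6.83% (1.86 to 17.5) from 4 UMIs. Col3a1 in Ctrl stood at 6.32% of the tumour cell level against 2.85% in T cells. Median depth was 6581 and 6887 UMIs in T cells and 11915 and 12673 in macrophages.

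**Figure D4:**
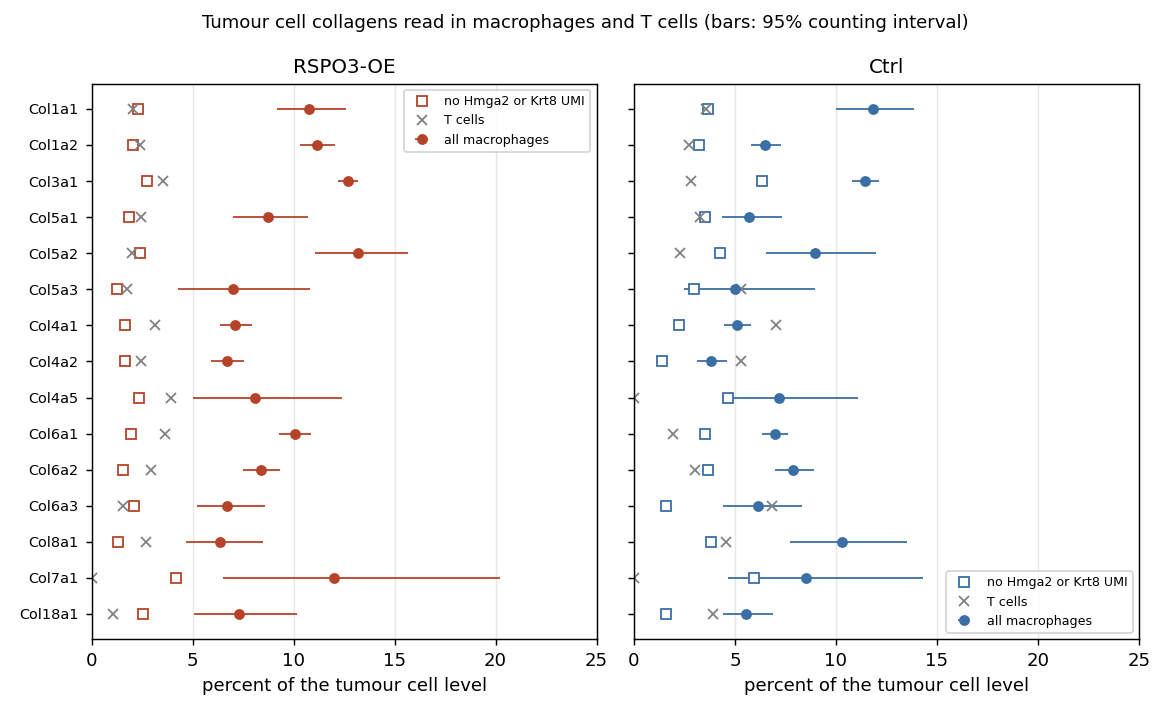
Level of the 15 abundant tumour cell collagens in other cells, as a percent of their level in tumour cells of the same library (RSPO3-OE left, Ctrl right), with bars for the 95% counting interval. Filled points are all macrophages, open squares macrophages with no UMI of Hmga2 or Krt8, and crosses T cells: the squares lie at 1.28% or above and below the filled points for each gene shown.

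Col14a1 did not follow this pattern. Its product is a fibril-associated collagen that sits on the surface of type I fibrils. It was at 23.7 CPM in RSPO3-OE macrophages (21.3 to 26.3) against 65.8 CPM in Ctrl macrophages (61.8 to 69.8), a log2 ratio of -1.47 (-1.65 to -1.30), from 363 and 1051 UMIs. Tumour cells held 0.129 and 0.273 CPM, and T cells had 1 and 0 UMIs. It was seen in 18.9% of RSPO3-OE and 44.4% of Ctrl macrophages, and in 4.41% and 11.3% of cells thinned to 2000 UMIs. In macrophages with no Hmga2 or Krt8 UMI it stood at 25.1 and 65.9 CPM, a log2 ratio of -1.40.

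The Col14a1 counts came from 229 RSPO3-OE and 522 Ctrl macrophages, and the top 10% of macrophages held 70.5% and 48.0% of them. Of these macrophages, 4 RSPO3-OE and 28 Ctrl cells held 5 UMIs or more, with a highest count of 10 and 28. Macrophages with a Col14a1 UMI had less Col1a1 than the others, at 3.97 against 12.2 CPM in RSPO3-OE and 4.70 against 14.4 CPM in Ctrl. Of the 8 fibroblast markers, Dcn stood at 88.3 against 280.9 CPM and at 75.4 against 162.7 CPM. Pdgfra (0.916 against 2.07 and 0.635 against 4.81), Pdgfrb (2.14 against 4.23 and 1.40 against 2.71) and Thy1 (0 against 1.16 and 0.254 against 1.11) were also lower in both libraries. Lum was higher with Col14a1 in RSPO3-OE (2.14 against 1.49, 7 UMIs) and lower in Ctrl (0.635 against 1.97). Pi16 was higher in Ctrl (2.54 against 2.10, 20 UMIs) and lower in RSPO3-OE (1.53 against 2.24). Fap had 1 and 4 UMIs, at 0.305 against 0.166 and 0.508 against 0.617 CPM. Dpt had 1 UMI in macrophages with Col14a1 in each library. The part of fibroblast RNA was not tested. C1qa stood at 7185 against 6218 CPM in RSPO3-OE and 7337 against 6628 CPM in Ctrl. They were deeper, with medians of 13435 and 14210 UMIs against 11605 and 11464, and this split was chosen after the Col14a1 level was seen.

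Col15a1 and Col18a1 complete the macrophage picture. Col15a1 stood at 3.98 and 4.32 CPM (log2 ratio -0.12, -0.64 to 0.40), above its tumour cell level of 0.336 and 0.0188 CPM, and had 0 UMIs in T cells of either library, which allows up to 0.995 and 2.19 CPM. Col18a1 stood at 2.28 and 5.19 CPM, and Col11a2, the third gene counted as lower, at 1.31 and 2.13 CPM.

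Host stromal cells, set by no Ptprc or Hmga2, few C1q and at least 2 Y-linked UMIs, numbered only 30 in RSPO3-OE and 13 in Ctrl and were a mixed class. Of them 7 and 6 had a UMI of the fibroblast genes Dpt or Pi16, 5 and 5 of the endothelial genes Pecam1 or Cdh5, none of both, and 18 and 2 of neither. T cell markers summed to 159.2 and 248.9 CPM in them, and in RSPO3-OE the macrophage gene Apoe stood at 955.5 CPM and neutrophil markers summed to 186.3 CPM. Collagen UMIs made up 31086 and 29468 CPM. Col1a1 stood at 6887 and 5814 CPM from 8 and 6 cells, Col1a2 at 9128 and 7286 CPM, and Col3a1 at 9946 and 10642 CPM. Col12a1 stood at 225.4 and 248.9 CPM and Col14a1 at 417.7 and 609.0 CPM, genes that tumour cells held at under 0.3 CPM. So few cells allow no comparison between the libraries.

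**Figure D5:**
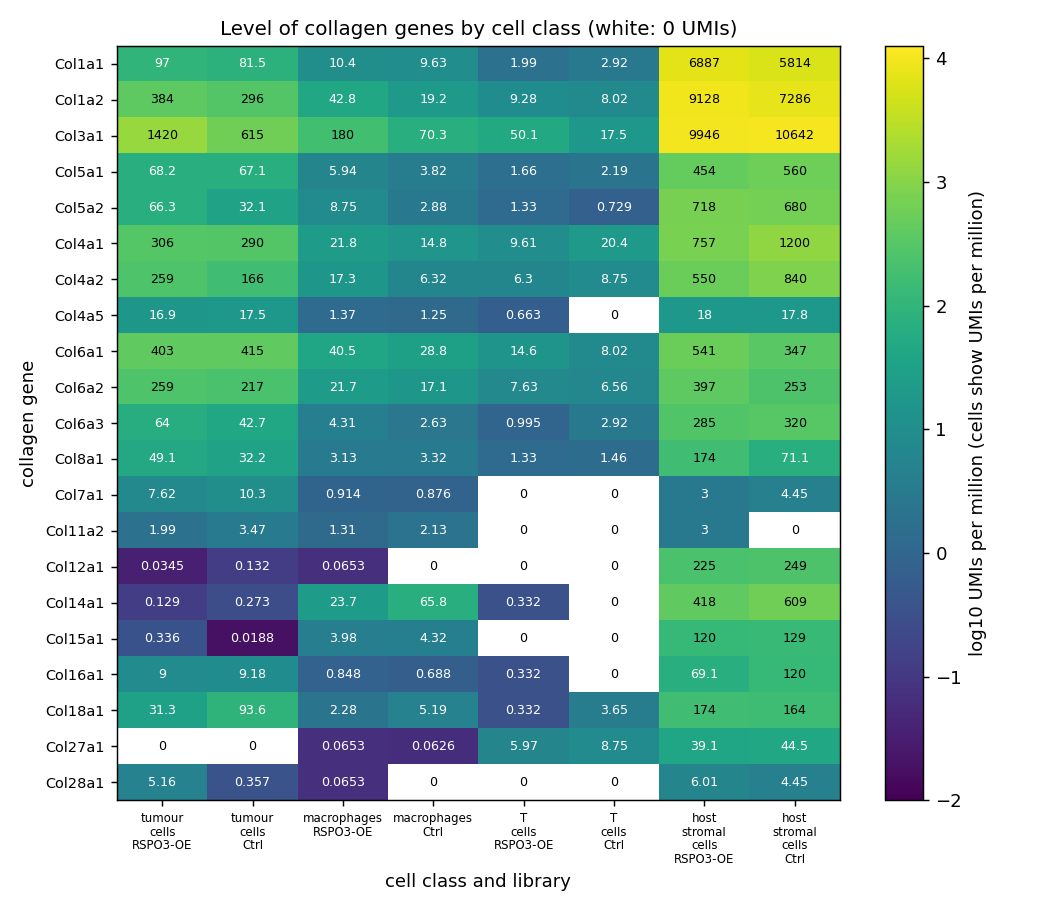
Level of 21 collagen genes (rows) in 4 cell classes of each library (columns), in CPM as printed in each cell, coloured on a log10 scale, with white for 0 UMIs. Host stromal cells are highest for type I and III genes, Col14a1 and Col15a1 stand higher in macrophages than in tumour cells, and Col27a1 has counts in T cells and 0 in tumour cells.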

How the data were processed

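The values are the UMI counts per gene and cell that the authors deposited, 1 filtered matrix per library. Per the labels' protocols, the tumours were digested and the cells captured with a 10x Genomics 3′ kit, version 2, and per the submitters' processing notes the reads were processed with Cell Ranger 3.0.1 against mm10 (the matrix headers name software version 3.1.0). Whether intronic reads were counted is not stated there. Cells with at least 200 genes and at most 20% mitochondrial UMIs were kept, and Scrublet in scanpy 1.11.5 (expected rate 0.05) marked 173 RSPO3-OE and 94 Ctrl doublets, which were removed. All 44 collagen IDs matched GENCODE vM21.

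UMIs were summed per class and library and divided by all UMIs of the class. Log2 ratios carry exact binomial counting intervals, levels exact Poisson intervals and shares of cells exact Clopper-Pearson intervals, all at 95%. A count of 0 was read as up to 3 counts, and a ratio against it as a bound. Genes were counted with at least 10 UMIs in both libraries together. There was no test, since each group is 1 library. The ratio step was tested on simulated data. T cells had Ptprc, at least 2 Cd3 UMIs, under 20 C1q UMIs and no Hmga2. Values are given in full for collagens at 10 CPM or more in tumour cells or macrophages of either library, and, for each list of related genes, for the 3 highest and 3 lowest ratios among members with at least 100 UMIs in tumour cells. Other genes named (Col28a1, Col15a1, Col11a2 and those of the low counts) were picked to account for every member. The collagen genes, the lists and the rules were chosen with earlier results of these data known. Alternatives were median-of-ratios scaling, the mean of each cell's own CPM, thinning, other cell filters, keeping doublets, other thresholds and other class rules. numpy 2.4.6, scipy 1.17.1 and pandas 2.3.3 were used.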

Additional observations from a re-analysis of the deposited data

Results flagged for a closer look

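Col6a1 stood at a log2 ratio of 0.49 (0.31 to 0.67) in macrophages and -0.04 (-0.06 to -0.02) in tumour cells, with 1 library per group. The tumour cell value ranged from -0.19 to 0.05 over the alternatives tried, so its direction depends on the processing. The difference between the classes was not tested. The macrophage value ranged from -0.88 to 0.66 over the alternatives tried and was -0.88 in macrophages with no Hmga2 or Krt8 UMI.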

How the results depend on the processing

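In tumour cells the ratios of Col3a1 (1.11 to 1.30), Col5a2 (0.97 to 1.16), Col4a2 (0.61 to 0.74), Col18a1 (-1.65 to -1.49) and Col28a1 (2.65 to 4.02) kept their direction under each alternative run, and so did Col14a1 in macrophages (-1.53 to -1.33). The summed tumour cell ratio of 0.53 became 0.62 with median-of-ratios scaling, 0.49 as the mean of the cells' own CPM, 0.50 in cells thinned to 2000 UMIs, 0.55 with at most 10% mitochondrial UMIs and 0.49 with at least 3 Hmga2 UMIs. Thinning left 4 genes higher and 3 lower in tumour cells, with Col8a1 at 0.54, under the threshold. A minimum of 100 UMIs, with fewer genes counted, left 2 lower. The share over all genes is not given for either setting. Without an Hmga2 rule (no Ptprc, C1q or Y-linked UMI, at least 2000 UMIs) Col14a1 in tumour cells turned to 2.06, with 47 of its RSPO3-OE UMIs in 5 cells without Hmga2.

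In macrophages the summed ratio of 0.59 became 0.49 as the mean of the cells' own CPM, 0.52 in thinned cells and 1.07 with doublets kept, where 15 genes were higher, while a 2-fold threshold left 4 higher. It turned to -0.57 with at least 50 C1q UMIs (median -0.70, 0 higher, 12 lower), -0.45 with a Ptprc UMI (median -0.38, 1 higher, 6 lower) and -0.60 with no Hmga2 or Krt8 UMI (median -0.53, 2 higher, 9 lower). With no Hmga2 UMI and any Krt8, chosen after seeing the data, it was -0.34 (median -0.63, 1 higher, 10 lower), and Col1a2, Col5a1 and Col5a3 stood at -0.12, -0.72 and -0.34. In the order of the first 3 rules, Col1a2 turned to -0.58, -0.21 and -0.27, Col5a1 to -0.63, -0.39 and -0.90, and Col5a3 to -1.16, -0.22 and -0.77. Col6a3 turned to -0.47 with 50 C1q UMIs, Col5a2 to -0.37 with a Ptprc UMI, Col3a1 to -0.0038 with no Hmga2 or Krt8 UMI, and Col11a2 to 2.54 in thinned cells. The cause of these changes was not tested. No paired analysis was possible because each group is 1 library. Depth limits the genes under 10 UMIs, which were not counted as higher or lower.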

Other observations

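Cells with at least 2000 UMIs and no UMI of Ptprc, C1q, Y-linked genes or Hmga2 numbered 354 in RSPO3-OE and 621 in Ctrl. They lie outside the tumour cell, macrophage, T cell and host stromal classes and held more collagen than tumour cells, at 8459 and 5275 CPM. Their median depth was 14880 and 11283 UMIs, below that of tumour cells (25379 and 21439). Tumour cell markers summed to 293.2 and 147.0 CPM in them although the rule excludes Hmga2, with Krt8 at 246.8 and 77.3 CPM. In tumour cells these markers summed to 1013 and 510.7 CPM. Fibroblast markers summed to 5644 and 3941 CPM, of which Dcn made up 5398 and 3687 CPM. Dpt stood at 12.96 and 0.498 CPM, against 619 and 467 CPM in host stromal cells. Pericyte and smooth muscle markers summed to 70.6 and 14.5 CPM, with Rgs5 at 22.5 CPM and 0, and neutrophil markers to 61.2 and 0.997 CPM. The part of these cells in the values was not tested. Col3a1 stood at 4466 and 1951 CPM in them, Col1a1 at 368.8 and 268.5 CPM, and Col18a1 at 51.3 and 100.7 CPM.

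Col27a1, a fibrillar gene best known from cartilage, had 18 UMIs in 15 of 381 RSPO3-OE T cells and 12 UMIs in 9 of 177 Ctrl T cells, or 5.97 and 8.75 CPM. Tumour cells had 0 UMIs among 4226 and 4327 cells, which allows up to 0.0259 and 0.0282 CPM, and macrophages had 1 UMI in each library. Host stromal cells held 39.1 and 44.5 CPM, beside T cell markers at 159.2 and 248.9 CPM in the same cells.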
